A study of Mus musculus with 7 samples.

Results

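The SR proteins and the heterogeneous nuclear ribonucleoproteins (hnRNPs) were examined as 31 protein-coding mouse genes, those whose GENCODE M21 symbol is Srsf with a digit or begins with Hnrnp. The 31 genes comprised 11 SR genes (Srsf1 to Srsf7 and Srsf9 to Srsf12) and 20 hnRNP genes, among 46603 genes counted in the tumor RNA-seq libraries. Every such gene of the annotation was counted, and 30 of the 31 had enough reads to be tested. Srsf12 did not pass the filter on low counts.

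SR proteins carry RNA recognition motifs and a tail rich in arginine and serine, bind enhancer sequences within exons and help to recruit the spliceosome to nearby splice sites. hnRNPs coat nascent transcripts, often through RNA recognition motifs, KH domains or glycine-rich tails, and many of them act against SR proteins by favouring exon skipping. Many genes of both families regulate their own transcripts through alternative exons that lead to mRNA decay, and several, among them Srsf1 and Hnrnpa1, are raised in many cancers. Hnrnpa1 also acts on the mutually exclusive exons of the glycolytic gene Pkm.

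The libraries came from tumors grown in 16-week-old female Balb/c nude mice after injection of mouse embryonic fibroblasts, with tumors removed at the end of the 30 days of the labels. Both groups derived from the CRL-2752 embryonic fibroblast line of ATCC in which nuclear myosin 1 (NM1), an isoform of Myo1c with an extended amino terminus, had been knocked out with CRISPR/Cas9. KO tumors (3 libraries) grew from the knockout cells, and KO+NM1 tumors (4 libraries) grew from knockout cells that carried NM1-HA-V5 from a lentivirus and had been selected with neomycin as single clones. No wild-type tumor library was analysed here. The labels write of a tumor of each kind cut into 4 pieces, whereas the study's methods also write of tumors, so the number of tumors behind each group is not certain. The libraries are called pieces 01 to 03 of KO and 01 to 04 of KO+NM1 here, and p-values measure the spread between pieces, which may not be that between mice. The sources place the injection both under the skin of the right flank and in the mammary pad, and host cells remain in such a graft.

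The libraries held 24088309 to 28326568 counts each. Myo1c, the gene that encodes NM1, was counted at 313, 289 and 306 CPM (TMM-normalised read counts, scaled to one library size) in the KO pieces and at 438, 408, 406 and 382 CPM in the KO+NM1 pieces, all 4 of them above every KO piece (log2 fold change -0.43, SE 0.13, edgeR adjusted p = 0.0310). That call was lost without KO 01, KO 02, KO 03 or KO+NM1 02 (log2 fold change -0.57 to -0.45, edgeR adjusted p = 0.0508 to 0.0720). The other Myo1c isoforms share nearly all of its exons, so a gene-level count does not check the knockout itself. Markers of cell types differed widely between the groups, and KO+NM1 01 stood apart from the other KO+NM1 pieces. Summed over all 14 proliferation markers, the level was 2680.2 to 3369 CPM in KO, 304 CPM in KO+NM1 01 and 93.8 to 123 CPM in KO+NM1 02 to 04. The 10 white adipocyte markers summed to 118 to 303 CPM in KO, 4565 CPM in KO+NM1 01 and 23264 to 33250.2 CPM in the other KO+NM1 pieces. Proliferation markers were thus highest in KO and adipocyte markers in KO+NM1 02 to 04. For the 10 skeletal muscle markers the sums were 2524 to 20155 CPM in KO and 7.91 to 27.4 CPM in KO+NM1. KO+NM1 01 was the highest of the KO+NM1 pieces in the immune markers. The 7 B and plasma cell markers summed to 4267 CPM in KO+NM1 01. They summed to 3.66 to 17.5 CPM in KO+NM1 02 to 04 and 9.77 to 43.9 CPM in KO. The macrophage and T cell markers of KO+NM1 01 lay nearer to KO than to the other KO+NM1 pieces. The 7 T cell markers summed to 215 CPM in KO+NM1 01, 3.85 to 3.99 CPM in KO+NM1 02 to 04 and 167 to 205 CPM in KO, and the 8 macrophage markers to 2454, 611 to 841 and 3079 to 3524 CPM. The 11 fibroblast markers, which fit the labelled origin of the cells, were present in every piece, at 9533 to 15330.5 CPM in KO and 3927 to 14253 CPM in KO+NM1, lowest in KO+NM1 01. No defining marker of these 7 lists was at 0 in a whole group. The part of these cell types in the results below was not tested, and in bulk tissue fewer cells of a type and less RNA per cell cannot be told apart.

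The bases upstream of the start site are shown for 6 genes on which the comparison turned, the 2 largest rises of each family and the 2 genes lower in KO. The sequences are RefSeq's (GRCm38.p6), each covering the 150 bases before the start, read 5′ to 3′ on the strand of the gene. Their positions are chr11:51606882-51607031 on the minus strand for Hnrnpab, chr15:103240247-103240396 on the plus strand for Hnrnpa1, chr11:88047223-88047372 on the plus strand for Srsf1, chr17:29032510-29032659 on the plus strand for Srsf3, chr12:80945349-80945498 on the plus strand for Srsf5 and chr10:63023850-63023999 on the minus strand for Hnrnph3. Capitals mark matches on either strand to CCAAT (the CCAAT box, ATTGG in reverse), TTTCCCGC (a form of the E2F site) and TATAAA (the TATA box).
Hnrnpab: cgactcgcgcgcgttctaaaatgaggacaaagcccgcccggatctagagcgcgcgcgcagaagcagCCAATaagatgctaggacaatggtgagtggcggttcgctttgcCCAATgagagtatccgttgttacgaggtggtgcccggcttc
Hnrnpa1: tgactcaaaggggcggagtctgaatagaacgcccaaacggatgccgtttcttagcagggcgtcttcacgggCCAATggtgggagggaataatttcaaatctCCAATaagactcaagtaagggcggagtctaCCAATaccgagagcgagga
Srsf1: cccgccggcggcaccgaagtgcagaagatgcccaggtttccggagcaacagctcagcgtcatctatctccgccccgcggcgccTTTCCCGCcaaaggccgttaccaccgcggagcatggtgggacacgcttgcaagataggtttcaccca
Srsf3: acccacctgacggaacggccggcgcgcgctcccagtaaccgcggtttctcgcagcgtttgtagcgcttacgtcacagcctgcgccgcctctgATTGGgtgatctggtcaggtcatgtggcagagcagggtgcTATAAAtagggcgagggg
Srsf5: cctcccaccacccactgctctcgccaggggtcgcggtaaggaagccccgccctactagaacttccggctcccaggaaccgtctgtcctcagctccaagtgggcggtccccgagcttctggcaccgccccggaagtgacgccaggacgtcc
Hnrnph3: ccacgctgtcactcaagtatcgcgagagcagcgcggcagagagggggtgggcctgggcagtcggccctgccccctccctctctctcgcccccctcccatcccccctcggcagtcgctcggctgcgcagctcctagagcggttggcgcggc

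Both hnRNP promoters with the largest rises, Hnrnpab and Hnrnpa1, held CCAAT in this window, whereas Hnrnph3 and Srsf5 held none of the motifs. This contrast did not extend to the other genes. Over 250 bases Hnrnpa3, Srsf2 and Srsf3, called higher below, also held CCAAT, but Srsf1, Srsf9, Hnrnpm and Hnrnpu, also called higher, did not. Genes not called held it too, among them Hnrnpl, Hnrnpk and Hnrnpul1. Over 250 upstream bases, 41 promoters were matched for 29 of the 31 genes. CCAAT was found in 20 of the 41 (48.8%), against 33.8% of all 32851 promoters. TTTCCCGC was found in 4 of the 41 (9.76%, those of Srsf1, Srsf10, Hnrnpr and Hnrnpul1) against 0.895% of all promoters, and the other E2F form searched, TTTGGCGC, in none of the 41 against 0.417%. CACGTG (the E-box) occurred in 3 (7.32%) against 6.02%, and TATAAA in 3 (7.32%) against 12.4%. The promoters of these genes had a median GC content of 68% over the 250 bases, against 52.4% for all promoters, and the part of GC content in these shares was not tested. A match is a string of letters and not a bound site.

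The SR and hnRNP genes called higher in KO than in KO+NM1 tumors were led by Hnrnpab, Hnrnpa1 and Hnrnpll, and those called lower were Srsf5 and Hnrnph3. Of the 30 genes tested, 10 were called higher in KO at an edgeR adjusted p under 0.05 (33.3%, against 25.7% of all 16887 genes tested), 2 were called lower (6.67%, against 24.5%) and 18 were not called. The fitted change was above 0 for 28 of the 30. With the further limit of a 2-fold change, 3 genes were higher (10% against 17.1%) and 1 was lower (3.33% against 20.3%). Read against these backgrounds, the share called higher was close to that of all genes, and the share called lower was smaller. The groups did not overlap and KO was higher for 12 genes (40% against 30.5%), and the same held with KO lower for 2 (6.67% against 26.4%). The median log2 fold change was 0.46 over the 10 SR genes and 0.43 over the 20 hnRNP genes, against -0.0017 over all genes tested. The changes were also narrow, since 86.7% of the 30 genes stayed within 2-fold in either direction, against 54.4% of all genes tested. Another scaling of the libraries shifted the log2 fold changes by a median over genes of -0.16 (upper quartile) to 0.18 (library size alone). With the shift of each setting taken off, the family medians were 0.40 to 0.60 (SR) and 0.38 to 0.58 (hnRNP) over the 16 alternatives. Both upper ends came from the fit without KO+NM1 01, where the shift was -0.13 but the median of all genes was -0.0022. The family medians themselves were 0.47 (SR) and 0.45 (hnRNP) in that fit.

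**Figure D1:**
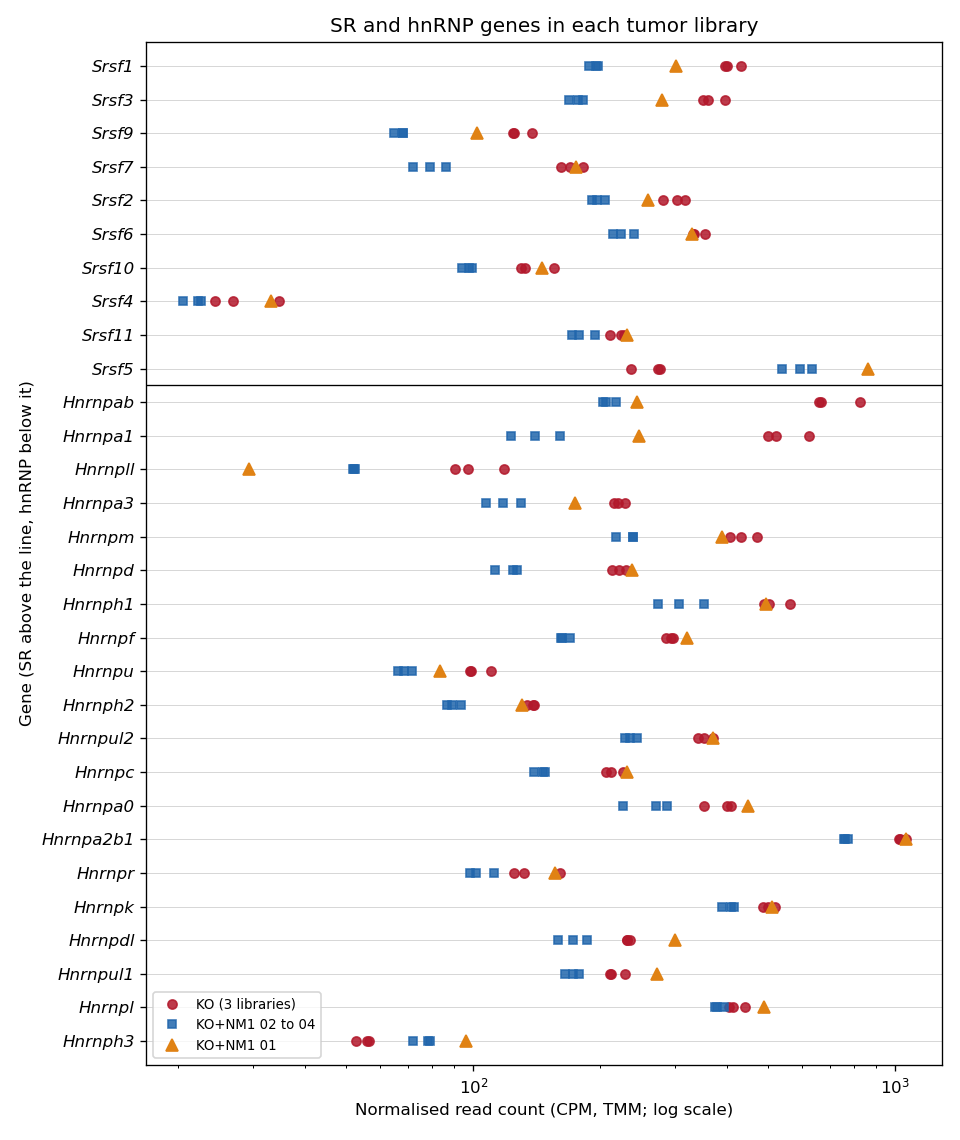
Normalised read count (CPM, log scale) of the 30 tested genes in every tumor library, with circles for KO, squares for KO+NM1 02 to 04 and triangles for KO+NM1 01. In 28 genes the KO circles lie to the right of all KO+NM1 squares, while the triangle of KO+NM1 01 lies among or near the circles for many of them.

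Among the SR genes, 4 were called higher (Srsf1, Srsf2, Srsf3 and Srsf9), 1 was called lower (Srsf5) and 5 were not called. Srsf1, a shuttling SR protein that binds purine-rich exonic enhancers and is oncogenic when overexpressed, was counted at 431, 399.9 and 395 CPM in KO 01 to 03 and at 303, 197, 188 and 195 CPM in KO+NM1 01 to 04. The groups did not overlap, and KO+NM1 01 was the nearest of the KO+NM1 pieces to KO. The KO mean was 1.85 times the KO+NM1 mean, at 409 ± 19.2 CPM (SD, n = 3) against 221 ± 54.7 CPM (SD, n = 4) (log2 fold change 0.89, SE 0.21, edgeR adjusted p = 0.0103). Srsf3, the smallest SR protein and an adaptor for mRNA export, was at 394, 360.3 and 349 CPM in KO and 280.3, 177, 168 and 182 CPM in KO+NM1. The groups again did not overlap, with KO+NM1 01 nearest to KO, and the difference was 1.82-fold (log2 fold change 0.87, SE 0.21, edgeR adjusted p = 0.0131). Srsf9, closest to Srsf1 in sequence, stood at 138, 125 and 124 CPM in KO and 102, 68.0, 65.0 and 68.0 CPM in KO+NM1, a 1.70-fold difference (log2 fold change 0.76, SE 0.19, edgeR adjusted p = 0.0133). For Srsf2, which binds exonic enhancers and also acts in release of paused RNA polymerase, the ranges were 282 to 317 CPM in KO and 191 to 259.9 CPM in KO+NM1 (log2 fold change 0.50, SE 0.16, edgeR adjusted p = 0.0338). Srsf2 was called under 6 of the 16 alternatives.

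Srsf5 ran against the other SR genes. This SR protein, known as an early gene induced by insulin, was counted at 237, 277 and 275 CPM in KO and at 860.0, 593, 538 and 635 CPM in KO+NM1. Each KO+NM1 piece lay far above all 3 KO pieces, and KO+NM1 01 was the highest of all. The means were 263 ± 22.5 CPM (SD, n = 3) against 657 ± 141 CPM (SD, n = 4), 2.50-fold higher in KO+NM1 (log2 fold change -1.32, SE 0.20, edgeR adjusted p = 0.00250). It was the only one of the 31 genes past both thresholds in that direction, and without KO+NM1 01 its log2 fold change was -1.29 (edgeR adjusted p = 0.000101).

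The remaining SR genes did not pass the threshold. Srsf6, which shares its domain layout with Srsf4 and Srsf5, was at 354, 333 and 332 CPM in KO and 329, 223, 215 and 241 CPM in KO+NM1, so that its groups just failed to overlap (log2 fold change 0.43, SE 0.19, edgeR adjusted p = 0.0910). Srsf10, an SR protein that turns into a splicing repressor when dephosphorylated in mitosis or heat shock, was at 155, 129.7 and 132 CPM in KO and 145, 94.0, 97.7 and 99.2 CPM in KO+NM1 (log2 fold change 0.35, SE 0.19, edgeR adjusted p = 0.163). In Srsf10 the overlap came from KO+NM1 01, which lay between the KO pieces. Srsf7, the SR protein with a zinc knuckle, was at 176 CPM in KO+NM1 01 but 71.8 to 86.1 CPM in the other KO+NM1 pieces, with KO at 161 to 182 CPM (log2 fold change 0.73, SE 0.33, edgeR adjusted p = 0.0999). Srsf4 was at 24.4 to 34.6 CPM in KO and 20.5 to 33.1 CPM in KO+NM1, and Srsf11 at 210.4 to 228 CPM and 171 to 232 CPM. Srsf12, a relative of Srsf10, was close to undetected, with 2, 0 and 2 raw counts in the KO pieces and 40, 2, 2 and 12 in KO+NM1. A count of 0 in a library of this depth allows up to 3 counts, or 0.106 to 0.125 CPM, a limit that covers counting error only, so the KO pieces and KO+NM1 02 and 03 were within that limit and no fold is given.

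Among the hnRNP genes, 6 were called higher (Hnrnpab, Hnrnpa1, Hnrnpll, Hnrnpa3, Hnrnpm and Hnrnpu), 1 was called lower (Hnrnph3) and 13 were not called. Hnrnpab, an A/B-type protein that binds AU-rich RNA and single-stranded DNA, was counted at 824, 659.8 and 667 CPM in KO and 244, 217, 207 and 203 CPM in KO+NM1. All 4 KO+NM1 pieces lay close together and far below KO, KO+NM1 01 included. The means were 717 ± 92.8 CPM (SD, n = 3) against 218 ± 18.8 CPM (SD, n = 4), a 3.29-fold difference (log2 fold change 1.72, SE 0.16, edgeR adjusted p = 0.000498). Hnrnpa1, the best known exon-silencing hnRNP, was at 625, 500.4 and 521 CPM in KO and 247, 139.9, 123 and 160.5 CPM in KO+NM1. KO+NM1 01 was the highest of its group for Hnrnpa1 but still well below the lowest KO piece. The means were 549 ± 67.0 CPM (SD, n = 3) against 168 ± 55.2 CPM (SD, n = 4), a 3.28-fold difference (log2 fold change 1.71, SE 0.26, edgeR adjusted p = 0.00216).

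Hnrnpll, which directs skipping of the variable exons of Ptprc (CD45) in activated T cells and plasma cells, was at 118, 90.7 and 97.1 CPM in KO and 29.4, 52.5, 52.2 and 51.8 CPM in KO+NM1. It was the only tested gene of the 30 that was lowest in KO+NM1 01, the piece with the B and plasma cell markers, and the other KO+NM1 pieces were nearly equal. The difference was 2.20-fold (log2 fold change 1.14, SE 0.23, edgeR adjusted p = 0.00638), and without KO+NM1 01 the log2 fold change was 0.84 (edgeR adjusted p = 0.000487), which leaves it called but under 2-fold. Hnrnpa3, a close relative of Hnrnpa1 and Hnrnpa2b1, was at 220.0, 228 and 215 CPM in KO and 175, 118, 107 and 129 CPM in KO+NM1 (log2 fold change 0.74, SE 0.19, edgeR adjusted p = 0.0149). For Hnrnpm, which binds GU-rich intronic sequence, the pieces ranged over 405 to 471 CPM in KO and 218 to 388 CPM in KO+NM1 (log2 fold change 0.69, SE 0.23, edgeR adjusted p = 0.0429). Hnrnpm was called under 4 of the 16 alternatives. Hnrnpu, a scaffold attachment protein of chromatin, ranged over 98.3 to 109.9 CPM and 66.4 to 83.3 CPM (log2 fold change 0.50, SE 0.13, edgeR adjusted p = 0.0166). Neither of them overlapped between groups.

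Hnrnph3, of the H/F group of proteins that read runs of G, was the only hnRNP gene lower in KO. Its values were 52.7, 56.5 and 56.1 CPM in KO and 96.2, 77.9, 72.0 and 78.8 CPM in KO+NM1, without overlap. The means were 55.1 ± 2.10 CPM (SD, n = 3) against 81.2 ± 10.4 CPM (SD, n = 4), 1.48-fold higher in KO+NM1 (log2 fold change -0.56, SE 0.14, edgeR adjusted p = 0.0133), and without KO+NM1 01 the log2 fold change was -0.60 (edgeR adjusted p = 0.000492). The call was lost with library size alone (edgeR adjusted p = 0.171) and with a block for the replicate number (edgeR adjusted p = 0.0803). Rufy2, a coding gene on the opposite strand, shares exonic sequence with Hnrnph3, and the strand setting of the counting is not given in the sources used here, so the 2 genes cannot be fully told apart.

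The hnRNP genes with the smallest changes were Hnrnpl, Hnrnpul1 and Hnrnpdl. Hnrnpl, which binds CA repeats, was at 441, 412 and 403 CPM in KO and 487, 393, 375 and 377 CPM in KO+NM1 (log2 fold change 0.04, SE 0.16, edgeR adjusted p = 0.861). Its groups overlapped, and under 5 of the other processing settings and 5 of the settings without a library the sign was negative. Hnrnpul1, a relative of Hnrnpu that acts in DNA damage signalling, was at 229, 212 and 211 CPM in KO and 272, 172, 165 and 178 CPM in KO+NM1 (log2 fold change 0.14, SE 0.21, edgeR adjusted p = 0.591), also with a sign that turned in places. Hnrnpdl, a paralog of Hnrnpd, was at 231, 232 and 235 CPM in KO and 300.4, 172, 159 and 186 CPM in KO+NM1 (log2 fold change 0.19, SE 0.24, edgeR adjusted p = 0.545). In all of these KO+NM1 01 was the highest piece of the 7.

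Hnrnpa2b1, Hnrnpd and Hnrnpul2 were not called with all libraries. Hnrnpa2b1, an mRNA trafficking protein and the most highly counted gene of the 31, was at 1059, 1026 and 1021 CPM in KO and 1058, 771, 755 and 762 CPM in KO+NM1 (log2 fold change 0.31, SE 0.20, edgeR adjusted p = 0.227). Hnrnpd, which promotes decay of AU-rich mRNAs, was at 230.2, 222 and 213 CPM in KO and 238, 127, 113 and 124 CPM in KO+NM1 (log2 fold change 0.56, SE 0.28, edgeR adjusted p = 0.133). Hnrnpul2 was at 370.3, 340.3 and 353 CPM in KO and 371, 235, 228 and 245 CPM in KO+NM1 (log2 fold change 0.39, SE 0.21, edgeR adjusted p = 0.153). In each of these KO+NM1 01 lay within or above the KO pieces, and the other 3 KO+NM1 pieces lay below them. The other 7 hnRNP genes not called (Hnrnpa0, Hnrnpc, Hnrnpf, Hnrnph1, Hnrnph2, Hnrnpk and Hnrnpr) had log2 fold changes of 0.22 (Hnrnpk) to 0.54 (Hnrnph1) and edgeR adjusted p-values of 0.0611 (Hnrnph2) to 0.335 (Hnrnpr). Hnrnph2 was the only one of the 7 whose groups did not overlap.

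The number of genes called depended on single pieces. KO+NM1 01 was the highest of the 4 KO+NM1 pieces for 29 of the 30 genes (96.7%, against 43.0% of all genes tested), with Hnrnpll as the exception. The median ratio of KO+NM1 01 to the median of KO+NM1 02 to 04 was 1.49 over the 30 genes and 1.01 over all genes tested. KO+NM1 01 reached at least the lowest KO piece for 18 genes and lay above the highest KO piece for 11. These counts were taken without a share over all genes. Against KO+NM1 02 to 04, every KO piece was higher for 28 of the 30 genes (93.3%, against 42.6% of all genes tested) and lower for Srsf5 and Hnrnph3 (2 of the 30, against 35.0% of all genes tested). Without KO+NM1 01, edgeR called 22 genes higher in KO and 2 lower, when 35.8% and 36% of the 16617 genes then tested were called. These were 7 of 10 SR genes and 15 of 20 hnRNP genes higher, and the medians stayed at 0.47 and 0.45. Srsf7 gained most among the SR genes, to 0.99 (edgeR adjusted p = 0.000127), and Hnrnpd and Hnrnpf went to 0.75 (edgeR adjusted p = 0.000299) and 0.71 (edgeR adjusted p = 0.000329). Without any 1 of KO 01, KO 02 or KO 03, edgeR called 3 genes higher in KO (Hnrnpab, Hnrnpa1 and Hnrnpll), when 16.7% to 17.4% of all genes then tested were called. With quality weights for the libraries, limma voom called 26 genes higher and 2 lower, when 41.7% and 35.2% of all genes tested were called. With KO+NM1 01 left out, the genes still not called were Srsf4, Srsf11, Hnrnpk, Hnrnpl, Hnrnpr and Hnrnpul1. The proliferation, adipocyte, B cell, T cell and macrophage sums given above separate KO+NM1 01 from the other KO+NM1 pieces as well, and their part in this was not tested.

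**Figure D2:**
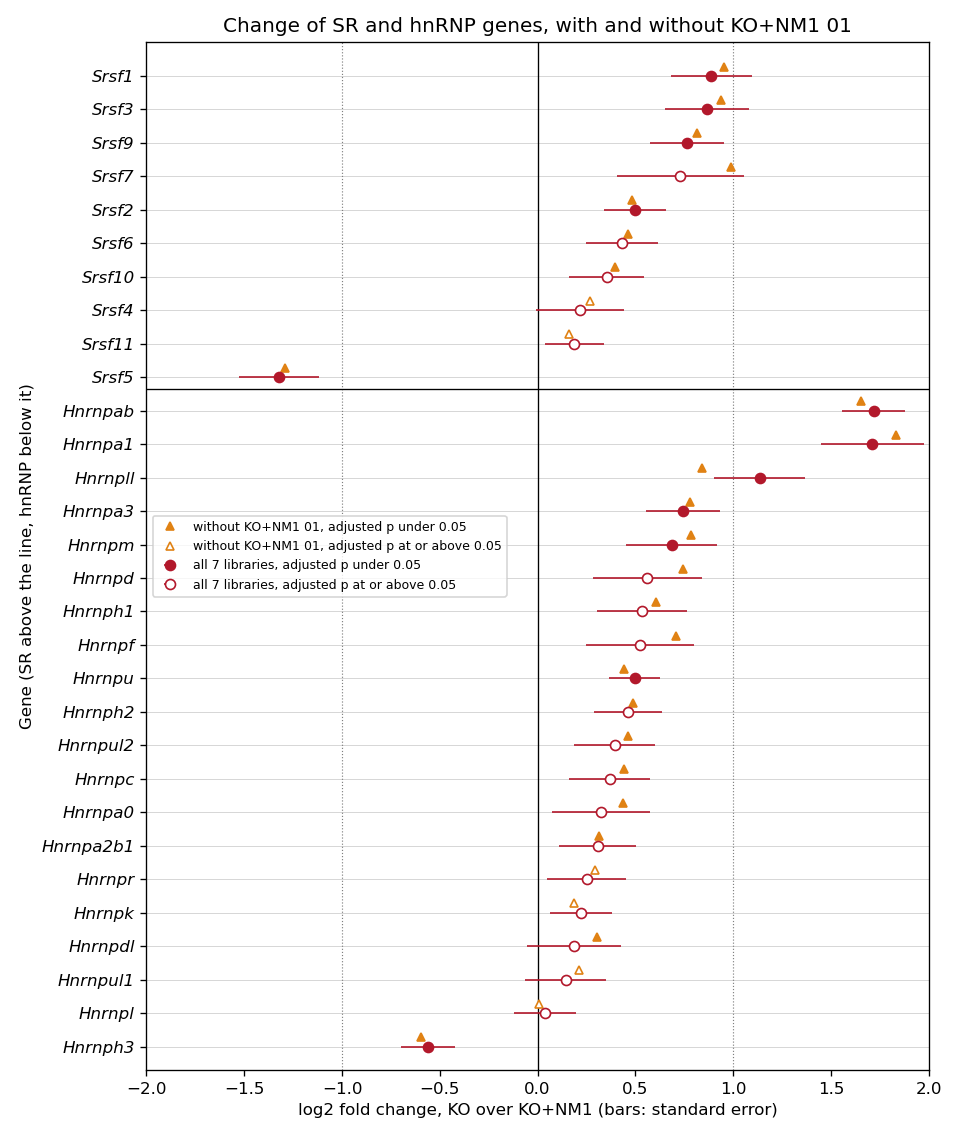
Log2 fold change of KO over KO+NM1 for the 30 tested genes from all 7 libraries (circles, with standard errors) and without KO+NM1 01 (triangles), filled where the edgeR adjusted p was under 0.05. Points right of 0 were higher in KO, and 10 circles but 22 triangles there are filled, while Srsf5 and Hnrnph3 lie left of 0 in both.

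Ratios between related genes within a library do not depend on how the libraries were scaled, so 13 pairs were compared by the log2 ratio of their normalised counts (plus 1). The groups did not overlap for 9 pairs, and 8 passed a two-sided exact permutation test, each at p = 0.0286, the smallest that 35 splits of the pieces can give, and at an adjusted p of 0.0464 over the 13 pairs. The adjusted p is the same for all 8 because it depends on how many pairs reach the smallest p, and it does not rank them. Some genes, such as Hnrnpa1 and Hnrnpd, enter more than 1 pair, so the pairs are not independent. No share was taken over other pairs of genes, so these counts have no background. Single genes already separated the groups in 30.5% (KO higher) and 26.4% (KO lower) of all genes tested. Among the 8 pairs that passed, the largest shift was that of Srsf5 to Srsf6, at -0.58, -0.27 and -0.28 in KO and 1.38, 1.41, 1.32 and 1.40 in KO+NM1, a difference of -1.75 (exact permutation p = 0.0286, adjusted p = 0.0464). KO+NM1 01 stood among the other KO+NM1 pieces in this ratio, unlike in the levels. Hnrnpa1 to Hnrnpa2b1 was -0.76, -1.04 and -0.97 in KO and -2.10, -2.46, -2.62 and -2.25 in KO+NM1 (exact permutation p = 0.0286, adjusted p = 0.0464), and Hnrnpa1 to Hnrnpa3 was higher in KO by 0.99. Hnrnpd to Hnrnpab was lower in KO by 2.12-fold, while Hnrnpd to Hnrnpdl was higher by 1.31-fold. Hnrnpa1 was thus higher in KO relative to both relatives compared with it, and Hnrnpab relative to Hnrnpd.

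Hnrnpl to Hnrnpll, a pair with shared targets, was 1.90, 2.18 and 2.05 in KO and 4.05, 2.90, 2.84 and 2.86 in KO+NM1 (exact permutation p = 0.0286, adjusted p = 0.0464). The smallest shifts that passed were those of Hnrnpul1 to Hnrnpul2 (-0.69, -0.68 and -0.74 in KO against -0.45, -0.45, -0.47 and -0.46 in KO+NM1) and of Srsf1 to Srsf9 (higher by 0.13 in KO), both with the same p as above. These ratios were tight within groups, with an SD of 0.00900 over the 4 KO+NM1 pieces for Hnrnpul1 to Hnrnpul2. In 4 pairs the groups overlapped, Srsf3 to Srsf7 (exact permutation p = 0.914, adjusted p = 0.914), Srsf4 to Srsf6 (exact permutation p = 0.114, adjusted p = 0.149), Hnrnph1 to Hnrnph2 (exact permutation p = 0.343, adjusted p = 0.405) and Hnrnpf to Hnrnph1 (exact permutation p = 0.914, adjusted p = 0.914). The ratio of Srsf10 to Srsf12 did not overlap but rests on the near-zero counts of Srsf12 (exact permutation p = 0.0857, adjusted p = 0.124).

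**Figure D3:**
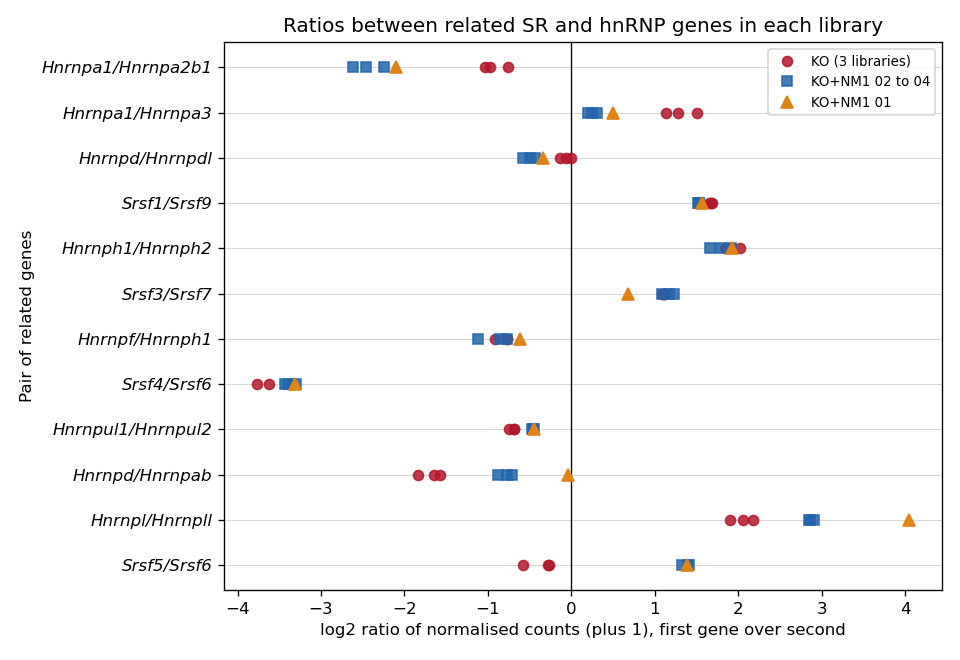
Log2 ratio of the normalised counts (plus 1) of pairs of related genes in each library, with Srsf10 to Srsf12 left out, and circles for KO, squares for KO+NM1 02 to 04 and a triangle for KO+NM1 01. The Srsf5 to Srsf6 ratio lies below 0 in the 3 KO pieces and between 1.32 and 1.41 in the 4 KO+NM1 pieces, and KO+NM1 01 departs from its group in Hnrnpl to Hnrnpll, Hnrnpd to Hnrnpab and Srsf3 to Srsf7.

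Levels of different genes were compared per length, as TPM (counts per kilobase of merged exons, scaled to one total in every library). Hnrnpab and Hnrnpa1 were the most abundant hnRNP genes in KO, at 894 ± 130.1 and 604 ± 82.7 TPM (SD, n = 3), followed by Hnrnpa2b1 at 545 ± 20.3 and Hnrnpa0 at 500.4 ± 47.5 TPM. Among these only Hnrnpab stood clear of its neighbours in every KO piece, since the pieces of Hnrnpa1 and Hnrnpa2b1 overlapped. In KO+NM1 the first place went to Srsf5 at 439 ± 177 TPM (SD, n = 4), a gene that ranked 13 in KO, with Hnrnpa2b1 and Hnrnpa0 next and overlapping it. The order depends on the length used, and with the longest principal transcript 7 of the 10 highest genes in KO were the same, Hnrnpa2b1 came first in both groups, and Srsf5 ranked 6 in KO and 2 in KO+NM1. The summed hnRNP level was 6852 ± 387 CPM in KO (SD, n = 3) and 4736 ± 1039 CPM in KO+NM1 (SD, n = 4), without overlap. The summed SR level overlapped, at 2369 ± 89.9 CPM and 2051 ± 454 CPM, and the rise of Srsf5 in KO+NM1 is part of that sum.

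Shares within each family were taken from TPM. On that scale the summed hnRNP level was 4985 ± 400.3 TPM in KO (SD, n = 3) and 2451 ± 1016 TPM in KO+NM1 (SD, n = 4), a 2.03-fold difference without overlap. In the TMM-normalised CPM given above the difference was 1.45-fold. TPM were not TMM-normalised, and mitochondrial genes held 1.81% to 2.14% of the counts in KO and 5.11% to 18.5% in KO+NM1. The part of this in the TPM difference was not tested. The summed SR level was 1860.4 ± 103 TPM and 1261 ± 517 TPM, with overlap. Srsf5 made 12.3% ± 1.47 (SD, n = 3) of the family sum in KO and 34.8% ± 0.887 (SD, n = 4) in KO+NM1. Srsf1 made 13.3% ± 0.144 (SD, n = 3) of the family sum in KO and 8.13% ± 0.314 (SD, n = 4) in KO+NM1, and Srsf9 14.5% ± 0.362 (SD, n = 3) of the family sum in KO and 9.67% ± 0.280 (SD, n = 4) in KO+NM1. Srsf2, Srsf3, Srsf6 and Srsf7 also took a larger share in KO in every piece, and Srsf4, Srsf10 and Srsf11 overlapped. The large share of Srsf5 in KO+NM1 lowers every other SR share there, so a larger share in KO need not be a higher level. Srsf6 and Srsf7 were not called higher. Within the hnRNP family Hnrnpab made 17.9% ± 1.18 (SD, n = 3) of the family sum in KO and 8.68% ± 1.12 (SD, n = 4) in KO+NM1, and Hnrnpa1 made 12.1% ± 0.752 (SD, n = 3) of the family sum in KO and 5.69% ± 0.612 (SD, n = 4) in KO+NM1. Shares must sum to the whole, so Hnrnpa2b1, Hnrnpa0, Hnrnpk and Hnrnpl took a smaller share in KO without being lower in level.

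**Figure D4:**
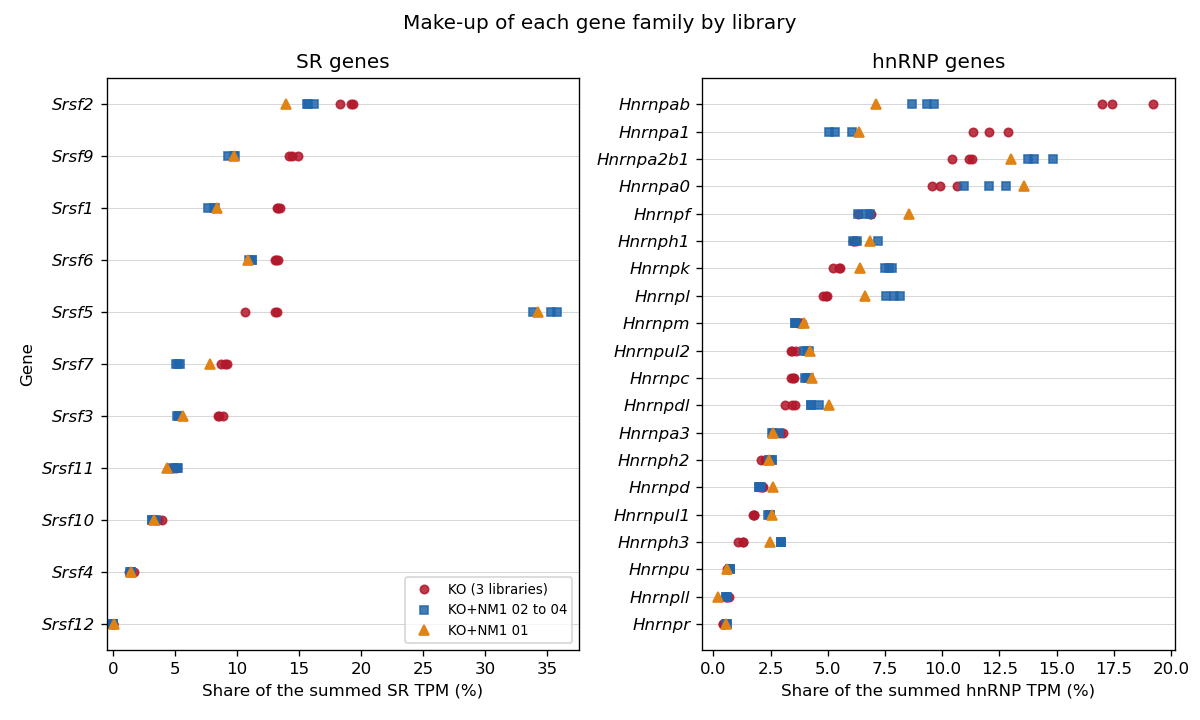
Share of the summed TPM of the SR family (left) and of the hnRNP family (right) taken by each gene in each library, in percent, with circles for KO, squares for KO+NM1 02 to 04 and triangles for KO+NM1 01. Srsf5 holds 33.8% to 35.8% of the SR sum in the KO+NM1 pieces and no more than 13.3% in the KO pieces, and Hnrnpab and Hnrnpa1 hold more of the hnRNP sum in KO.

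The other genes of the splicing pathway were counted by list, to be read against the 25.7% higher and 24.5% lower of all genes tested. The genes named as first or largest in a list are so among its called genes with a mean of at least 5 CPM. Of 13 tested hnRNP-type genes under other names, 7 were higher in KO and 2 lower, with a median log2 fold change of 0.85. The 2 that were lower were the RNA-binding glycine-rich proteins Cirbp (log2 fold change -2.06, SE 0.27, edgeR adjusted p = 0.00162) and Rbmx (log2 fold change -1.15, SE 0.15, edgeR adjusted p = 0.00142). Cirbp, a protein induced by mild cold, was at 35.7, 46.6 and 47.8 CPM in KO and 273, 162, 128 and 164 CPM in KO+NM1. The largest rises were those of the poly(C)-binding proteins Pcbp3 (log2 fold change 1.43, SE 0.22, edgeR adjusted p = 0.00223) and Pcbp4 (log2 fold change 1.39, SE 0.23, edgeR adjusted p = 0.00285). Of 23 SR-related genes, 6 were higher and 0 lower, with a median of 0.19, and the largest rises above that limit were Scaf11 (log2 fold change 1.45, SE 0.22, edgeR adjusted p = 0.00216) and Rnps1 (log2 fold change 0.92, SE 0.17, edgeR adjusted p = 0.00448), a component of the exon junction complex. The SR-related list was thus close to the background of all genes in the higher direction.

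Genes that modify or import SR proteins were split. Of 18, 8 were higher and 3 lower, with a median of 0.24. The kinase Srpk1, which phosphorylates the SR tail in the cytoplasm, was at 164, 137 and 129 CPM in KO and 77.3, 48.7, 46.8 and 48.7 CPM in KO+NM1 (log2 fold change 1.37, SE 0.22, edgeR adjusted p = 0.00231). Clk1, a nuclear kinase of the same tails, went the other way, at 96.3, 111 and 108 CPM in KO and 327, 216, 196 and 219 CPM in KO+NM1 (log2 fold change -1.19, SE 0.20, edgeR adjusted p = 0.00366). In both genes the groups did not overlap, and KO+NM1 01 was the highest KO+NM1 piece, as in Srsf5. Tnpo1, the import receptor of Hnrnpa1, was higher in KO (log2 fold change 1.28, SE 0.19, edgeR adjusted p = 0.00177) and Dyrk1b, a kinase of quiescent cells, was lower (log2 fold change -0.95, SE 0.31, edgeR adjusted p = 0.0419).

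Core spliceosome genes were mostly higher in KO. Of 17 Sm and LSm genes, which form the rings around spliceosomal RNAs, 16 were higher in KO and 1 was lower. Their median log2 fold change was 1.03. The groups did not overlap for any of the 17. KO was higher in 94.1% of them (against 30.5% of all genes tested) and lower in 5.88% (against 26.4%). The largest rises were Snrpf (log2 fold change 2.10, SE 0.22, edgeR adjusted p = 0.000711) and Lsm2 (log2 fold change 1.92, SE 0.15, edgeR adjusted p = 0.000326), and the single fall was Snrpn, the imprinted neural form of an Sm protein (log2 fold change -2.68, SE 0.70, edgeR adjusted p = 0.0237), which counted at most 11.6 CPM. Among 23 genes of the U1 and U2 particles and of 3′ splice site recognition, 14 were higher (60.9%) and 1 lower (median 0.70), with Sf3b3 (log2 fold change 1.81, SE 0.30, edgeR adjusted p = 0.00298) and Ddx46 (log2 fold change 1.31, SE 0.23, edgeR adjusted p = 0.00320) first and Prpf40b as the fall (log2 fold change -0.76, SE 0.23, edgeR adjusted p = 0.0294). Among 29 genes of the tri-snRNP and the Prp19 complex, 16 were higher (55.2%) and 0 lower (median 0.68), with Eftud2 (log2 fold change 1.89, SE 0.22, edgeR adjusted p = 0.000851) and Prpf31 (log2 fold change 1.33, SE 0.20, edgeR adjusted p = 0.00204) first. Without KO+NM1 01 the counts higher and lower were 16 and 1 for Sm and LSm genes, 18 and 2 for the U1 and U2 list and 21 and 0 for the tri-snRNP list. In that setting 35.8% of all genes then tested were called higher and 36% lower. Without 1 KO piece (KO 01, KO 02 or KO 03) the counts higher were 12, 13 and 13 for Sm and LSm genes, 8, 11 and 9 for the U1 and U2 list and 7, 8 and 9 for the tri-snRNP list. Of all genes then tested, 16.7% to 17.4% were called higher. The calls of Snrpn and Prpf40b were lost without KO 02, and that of Prpf40b also without KO 01, KO 03 or any 1 of KO+NM1 02 to 04, and that of Snrpn without KO+NM1 02 or KO+NM1 03.

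Of 32 tissue-regulated splicing factors, 11 were higher (34.4%, against 25.7% of all genes tested) and 7 lower (21.9%, against 24.5%), shares near those of all genes, with a median of 0.29. Rbfox1, a regulator of muscle and neural exons, was at 6.27, 62.4 and 53.2 CPM in KO and 0.182, 0.163, 0.0494 and 0.164 CPM in KO+NM1 (log2 fold change 8.11, SE 0.85, edgeR adjusted p = 0.000843). Its KO+NM1 values are close to the limit of 3 counts, so the fitted fold rests on few reads. The KO pieces of Rbfox1 ranked like their skeletal muscle marker sums, lowest in KO 01. Rbm24, another muscle splicing factor, was at 3.70, 27.7 and 23.2 CPM in KO and 2.52, 4.76, 3.11 and 7.36 CPM in KO+NM1 (log2 fold change 2.03, SE 0.68, edgeR adjusted p = 0.0420). The largest falls among called genes with a mean of at least 5 CPM were Khdrbs3 (log2 fold change -3.49, SE 0.46, edgeR adjusted p = 0.00189) and Rbms3 (log2 fold change -3.19, SE 0.35, edgeR adjusted p = 0.00110). The part of host muscle or fat in these values was not tested. Without KO+NM1 01, the counts higher and lower were 7 and 2 for hnRNP-type genes, 10 and 3 for SR-related genes, 10 and 5 for kinases and import, and 15 and 7 for tissue-regulated factors. These are to be read against 35.8% higher and 36% lower of all genes then tested. Without KO 01, KO 02 or KO 03 the counts higher were 7 each time for hnRNP-type genes, 2 or 3 for SR-related genes, 4 or 5 for kinases and import and 3 or 4 for tissue-regulated factors. In these settings 16.7% to 17.4% of all genes then tested were called higher. The call of Rbm24 was lost without KO 02, KO 03 or any 1 of KO+NM1 01 to 03, and with DESeq2 size factors, the upper quartile or no filter beyond 1 count (edgeR adjusted p = 0.0508 to 0.0614), and that of Dyrk1b without KO 01, KO 03 or any 1 of KO+NM1 02 to 04.

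**Figure D5:**
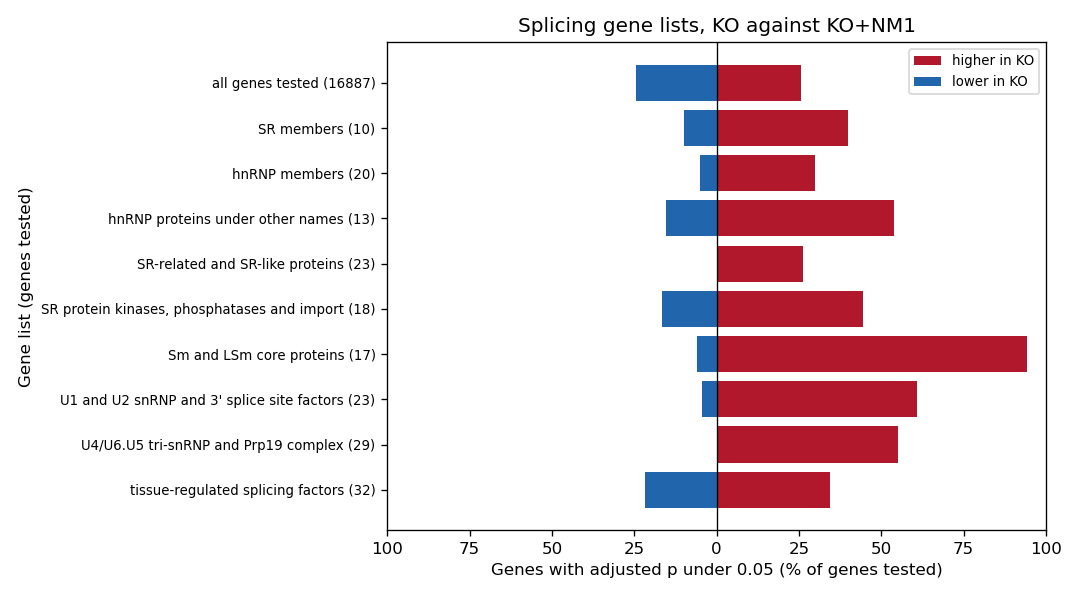
Share of the tested genes of each splicing list called higher (right) or lower (left) in KO at an edgeR adjusted p under 0.05, in percent, with the number of genes tested in parentheses and all genes tested as the top bar. The Sm and LSm list reaches 94.1% higher, against 40% for SR genes, 30% for hnRNP genes and 25.7% for all genes tested.

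Gene-level counts merge all transcripts of a gene, so coding forms and those with retained introns or decay exons were not separated. The annotation lists such transcripts for many of these genes, with 13 retained-intron transcripts among the 34 of Hnrnpk and 11 among the 19 of Srsf11. Near-identical copies mattered for Hnrnpa3. Its coding sequence matched 25 other counted genes at 95% identity or more over at least 100 bases, 24 of them pseudogenes, and these held 114% as many counts as Hnrnpa3 itself, of which Gm6793 alone had 28810. The copies summed to 265 ± 15.3 CPM in KO (SD, n = 3) and 137 ± 52.0 CPM in KO+NM1 (SD, n = 4), so the direction was the same, but how the reads of Hnrnpa3 were split is uncertain. For the other genes copies outside overlapping loci held at most 3.43% (Hnrnpc). Exons of coding genes on the opposite strand overlap Srsf2 (Mettl23 and Mfsd11), Hnrnpab (Phykpl), Hnrnpk (Rmi1) and Hnrnpu (Cox20), and March2 overlaps Hnrnpm on the same strand, so reads there cannot be assigned with certainty.

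Several of the genes are neighbours. Hnrnpd and Hnrnpdl lie 54.6 kb apart on chromosome 5 and had log2 fold changes of 0.56 and 0.19. Hnrnpll and Srsf7 lie 138 kb apart on chromosome 17, both on the minus strand, at 1.14 and 0.73. On chromosome 13, Hnrnpa0 and Hnrnpk (263 kb apart) had 0.32 and 0.22, and on chromosome 4, Srsf10 and Hnrnpr (441 kb) had 0.35 and 0.25. Hnrnph1 and Hnrnpab are 1214 kb apart on chromosome 11, and changed by 0.54 and 1.72.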

How the data were processed

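Reads were trimmed with Trimmomatic 0.36, aligned to GRCm38 with HISAT2 2.0.4, sorted with SAMtools 0.1.19 and counted per gene with HTSeq by the authors, per the submitters' processing notes and the paper's methods. The authors deposited raw counts for each of the 7 libraries (24088309 to 28326568 counts). The annotation release and strand setting are not given in the sources used here. Ensembl identifiers were named with GENCODE M21. The members and lists were chosen with earlier results of these data known.

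KO was compared with KO+NM1 in edgeR 4.0.16 (quasi-likelihood test, R 4.3.3) over the 16887 genes that passed filterByExpr (minimum count 10), with TMM normalisation, no covariate and Benjamini-Hochberg adjustment over all of them. The called groups used an adjusted p under 0.05, with and without a 2-fold change. CPM was computed from the deposited counts. TPM used merged exon lengths, and 512 genes without one were left out. Ratios of related genes were tested by a two-sided exact permutation test over 35 splits, adjusted over 13 pairs. Copies were sought with blastn 2.17.0. Values in every library are given for members past both thresholds, the 5 largest rises and falls, pairs whose ratios did not overlap and the untested member, and other members by range. From each list, up to 2 rises and 2 falls past the threshold with a mean of at least 5 CPM are named. Alternatives were other scalings and filters, DESeq2 1.42.0, limma 3.58.1 (voom), a replicate block and leaving out each library, and, chosen after seeing the data, another transcript length and the same alternatives for Myo1c and the pathway lists. The scripts were tested on simulated data. No 2 libraries agreed within sampling noise.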

Additional observations from a re-analysis of the deposited data

Results flagged for a closer look

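In 12 genes and 1 ratio, 1 KO+NM1 piece lay far from the other KO+NM1 pieces by Dixon's ratio (gap to the nearest piece over the range of the group, on log2 values, past its 95% limit for 4 pieces), and in every case that piece was KO+NM1 01. The ratio was 0.841 for Hnrnpd, 0.937 for Hnrnpa2b1, 0.900 for Srsf1, 0.876 for Srsf10, 0.899 for Srsf9, 0.843 for Hnrnpul1, 0.925 for Hnrnpf, 0.839 for Hnrnpm, 0.881 for Hnrnpc, 0.843 for Srsf3 and 0.855 for Hnrnpul2, with KO+NM1 01 high in all of them. Hnrnpll had 0.976 with KO+NM1 01 low, and the ratio of Hnrnpl to Hnrnpll had 0.951 with KO+NM1 01 high. For independent values the limit would flag about 1 in 20, or 2.15 of the 43 tested, but these values share 1 library and are not independent. No such share was taken over all genes tested, so the count of flags has no background. Over all genes tested, KO+NM1 01 correlated with KO+NM1 02 to 04 at 0.86 to 0.87 in log2 CPM. Those pieces correlated with each other at 0.98 to 0.99. The marker sums of KO+NM1 01 stand in the report beside the levels, and their part in these gaps was not tested.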

How the results depend on the processing

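Of the 30 genes tested, Hnrnpa1, Hnrnpab, Hnrnpll and Srsf5 were called in the same direction under all 16 alternatives, and Hnrnpl and Srsf4 under none. The other genes called with all libraries were called under fewer: Hnrnpm under 4, Srsf2 under 6, Hnrnpu under 10 and Hnrnpa3 under 12. Srsf1, Srsf3 and Srsf9 were each called under 13, and Hnrnph3 under 14. The count higher in KO, 10 with all libraries, was 26 with limma voom and 3 to 22 with 1 library left out, and the count lower, 2, was 1 with library size alone. With the 2-fold limit, 3 genes were higher, against 5 with library size alone and 5 with limma voom. With these exceptions and the replicate block, the counts stayed within 1.5 times of their values, at 7 to 10 genes higher under the other alternatives. The median changes stayed at 0.29 to 0.63 for SR genes and 0.27 to 0.59 for hnRNP genes.

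The sign of Hnrnpl turned to -0.0601 with DESeq2 size factors, -0.12 with the upper quartile, -0.0600 with every gene of at least 1 count, -0.011 with at least 10 counts in every library and -0.0602 with DESeq2, and its change ran from -0.11 to 0.00718 with 1 library left out. Hnrnpul1 turned to -0.011 with the upper quartile and ran from -0.00840 to 0.21, and Srsf4 from -0.051 to 0.27, with 1 library left out. Myo1c was at -0.25 with library size alone (edgeR adjusted p = 0.297), a setting that also lost the calls of Dyrk1b (0.0668) and Prpf40b (0.0779), and at -0.57 to -0.45 with 1 library left out. The cause of these shifts was not tested, apart from fewer libraries where 1 was left out.

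The replicate numbers are not shown to pair the pieces: same-numbered pieces of KO and KO+NM1 correlated at 0.0716, 0.0966 and -0.0193 in their deviations from the group means, and only KO 01 correlated best with its own number. With the replicate block, 6 of the 30 genes were higher and 1 was lower, when 17.9% and 15.9% of all genes tested were called, and Myo1c was at -0.46 (edgeR adjusted p = 0.126), and the calls of Rbm24 (0.0647) and Prpf40b (0.0741) were lost.

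Depth limits Srsf12 alone among the 31 genes. The labels write of a tumor of each kind and the study's methods of tumors. The KO+NM1 cells were also transduced, selected with neomycin and cloned, so clone and selection cannot be told apart from the return of NM1. The white adipocyte and skeletal muscle marker sums did not overlap between the groups, so host tissue cannot be told apart from NM1 either. Both limits hold for any number of tumors. If each group was 1 tumor, tumor cannot be told apart from NM1 as well.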
